A study of Mus musculus with 5 samples.

Results

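The genes described here are the enzymes of glycolysis and the genes of the cellular response to low oxygen, followed in mouse embryonic stem cells after siRNA transfection. The set holds 37 genes, 20 of glycolysis and 17 of the hypoxia response, and its members were found by gene name among the 12930 genes of the deposited table, which writes them in capitals (NDRG1, PGK1, BNIP3, CAR9 and so on). Of the 37, 30 had a value in every siRNA library: 18 of glycolysis and 12 of the hypoxia response. The other 7 (Pfkm, Ldhb, Egln1, Egln3, P4ha1, Adm and Hif1a) were found neither by symbol nor by a RefSeq synonym and were not analysed here. None of the 30 had a value in some libraries only. The study knocked down Dhx30, an RNA helicase of mitochondrial RNA granules, or Tfam, which packages mitochondrial DNA and starts its transcription. It has 5 libraries: 2 of cells given siRNA to Dhx30 (siDhx30), 2 given siRNA to Tfam (siTfam) and 1 given a negative control siRNA (NC). All are of OG2 mouse embryonic stem cells, which carry a GFP reporter of Oct4, with the strain given as (CBA/CaJxC57BL/6J) with 129Sv/Jae. The cells spent 24 h on gelatin in N2B27 medium with LIF, PD0325901 and CHIR99021, which holds the naive state. They were then transfected at 50 nM siRNA and at once moved for 36 h to medium with 12.5 ng/ml bFGF, 20 ng/ml Activin A and 1% knockout serum replacement, which leads cells out of that state. The labels do not say that libraries came from separate cultures, so the p-values cover the spread among these libraries alone, and that spread may be technical.

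Glycolysis turns glucose into pyruvate in the cytosol, first spending ATP to prime and split the sugar and then regaining it, and lactate dehydrogenase reduces pyruvate to lactate when it is not burned in mitochondria. Under low oxygen the prolyl hydroxylases of the Egln family stop marking the alpha subunits of the hypoxia-inducible factors (HIF) for destruction through the von Hippel-Lindau protein. The stabilised subunit pairs with Arnt, binds a short DNA element around the letters ACGTG or GCGTG, and raises many glycolytic enzymes together with genes of mitophagy, blood vessel growth, collagen hydroxylation and pH control. Naive mouse embryonic stem cells use both respiration and glycolysis, and primed cells are known for a more glycolytic metabolism.

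Every value below is a log2 ratio of an siRNA library over the single NC library, or a difference of such ratios, with the deposited sign turned round. The column headings state neither denominator nor direction. The direction was inferred from the missing values: all 1574 deposited values of genes missing in another library were below 0, and of the genes with extreme deposited values, all 102 beyond 3 had every value, while only 20 of 124 beyond -3 did. That pattern is what a minimum on reads in either library of a ratio leaves if the deposited ratio is NC over siRNA, and with the deposited sign kept every direction below turns round. The depth of the libraries and the level of each gene are unknown, so a ratio of few reads could not be told from one of many. All 4 ratios share the NC library, and a gene that is high in all 4 cannot be told apart from a gene that was low in NC. Over the 12088 genes with 4 values, siDhx30 replicate 1 lay closer to siTfam replicate 1 (median absolute difference 0.14) than to its own replicate (0.23), and the siTfam replicates lay 0.24 apart. The targets themselves were Dhx30 at -0.40 and -0.20 in siDhx30 and Tfam at -0.28 and -0.02 in siTfam, and a knockdown was not established for either (limma adjusted p = 0.998 and 0.987). Pou5f1, Sox2 and Nanog were not used here, so the labelled cell type could not be checked against its defining markers. The 4 of 12 pluripotency markers with values had medians of 0.16 and 0.02 in the siDhx30 libraries and 0.15 and 0.13 in the siTfam libraries. Of 12 primitive endoderm markers 6 had values, with medians of -0.20 and -0.07 in the siDhx30 libraries and -0.42 and -0.66 in the siTfam libraries. Of 10 fibroblast and feeder markers 4 had values, with medians of -0.01 and 0.02 in siDhx30 and -0.16 and -0.13 in siTfam. The part of such cells in the results below was not tested, and in bulk RNA fewer cells of a type and less RNA per cell cannot be told apart.

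Promoter windows are shown for members whose ratios are described in most detail below and for Ldha and Pgam1, which hold the same motif and reached 0.5 in no library. Each window is 300 bases of RefSeq sequence on GRCm38.p6, with 250 bases before a start site and 50 after, and where a gene had several windows the one nearest to the 5′ end of its GENCODE gene was taken. Capitals mark ACGTG and GCGTG, searched on both strands, so that CACGT and CACGC are the same motifs read from the other strand, and CACGTG holds ACGTG on both.
Pgk1 (chrX:106186850-106187149, plus strand): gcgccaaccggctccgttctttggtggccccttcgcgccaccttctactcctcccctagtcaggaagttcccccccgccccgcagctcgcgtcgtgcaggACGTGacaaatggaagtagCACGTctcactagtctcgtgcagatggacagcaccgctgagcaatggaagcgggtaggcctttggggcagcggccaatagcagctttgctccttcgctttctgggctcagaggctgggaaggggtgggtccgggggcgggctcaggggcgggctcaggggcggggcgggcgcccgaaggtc
Pfkfb3 (chr2:11553880-11554179, minus strand): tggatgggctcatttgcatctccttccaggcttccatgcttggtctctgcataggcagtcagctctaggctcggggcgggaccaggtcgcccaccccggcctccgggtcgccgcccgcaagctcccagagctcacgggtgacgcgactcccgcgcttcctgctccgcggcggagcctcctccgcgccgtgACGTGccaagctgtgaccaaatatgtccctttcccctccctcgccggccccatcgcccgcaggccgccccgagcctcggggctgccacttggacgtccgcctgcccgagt
Bnip3 (chr7:138909457-138909756, minus strand): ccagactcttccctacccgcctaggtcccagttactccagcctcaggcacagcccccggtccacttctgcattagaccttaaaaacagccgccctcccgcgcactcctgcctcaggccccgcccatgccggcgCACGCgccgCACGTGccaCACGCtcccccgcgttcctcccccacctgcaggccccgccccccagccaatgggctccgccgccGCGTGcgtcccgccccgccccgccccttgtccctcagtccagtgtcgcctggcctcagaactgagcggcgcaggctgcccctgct
Car9 (chr4:43506776-43507075, plus strand): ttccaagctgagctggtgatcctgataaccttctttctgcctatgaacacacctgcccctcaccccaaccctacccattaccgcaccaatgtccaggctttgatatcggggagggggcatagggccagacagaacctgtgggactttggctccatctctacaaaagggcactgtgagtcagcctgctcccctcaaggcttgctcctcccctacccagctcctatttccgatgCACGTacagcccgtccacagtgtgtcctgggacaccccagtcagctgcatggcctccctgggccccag
Ldha (chr7:46845554-46845853, plus strand): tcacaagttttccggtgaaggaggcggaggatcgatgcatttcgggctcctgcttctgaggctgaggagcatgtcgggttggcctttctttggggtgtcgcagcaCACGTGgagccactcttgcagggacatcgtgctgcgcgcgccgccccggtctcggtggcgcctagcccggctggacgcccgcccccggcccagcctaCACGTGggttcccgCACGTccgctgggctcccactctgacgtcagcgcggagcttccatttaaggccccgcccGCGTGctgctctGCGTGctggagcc
Pgam1 (chr19:41911621-41911920, plus strand): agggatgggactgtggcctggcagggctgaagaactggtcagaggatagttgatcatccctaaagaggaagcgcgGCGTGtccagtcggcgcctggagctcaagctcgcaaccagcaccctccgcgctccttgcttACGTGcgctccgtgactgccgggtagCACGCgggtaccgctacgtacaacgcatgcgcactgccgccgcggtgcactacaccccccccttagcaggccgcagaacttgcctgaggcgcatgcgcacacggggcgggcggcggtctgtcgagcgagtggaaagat
The windows of Pgk1, Pfkfb3, Bnip3 and Car9 belong to 4 of the 5 members that lay at 0.5 or above in both libraries of a group, and all 4 hold ACGTG. No window of Ndrg1, the fifth, was used here. The windows of Ldha, with means of 0.20 in siDhx30 and 0.11 in siTfam, and Pgam1, with -0.14 in siDhx30 and -0.29 in siTfam, hold it too. ACGTG alone was found in 7 of 18 glycolysis windows (38.9%) and in 5 of 9 hypoxia response windows (55.6%), against 26.1% of tested genes with a window. Either motif was found in 12 of 18 glycolysis windows (66.7%) and in 8 of 9 hypoxia response windows (88.9%), against 63.9% of 8263 tested genes with a window and 43.8% of all 27025 genes in the promoter table. The Vegfa window held neither motif. A match is a description of these letters and not a bound site.

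Among the priming and splitting enzymes of glycolysis, most ratios to NC lay within 0.3 of 0, and the libraries disagreed on the sign of several. Hk1, a hexokinase that traps glucose in the cell, had ratios of -0.20 and -0.14 in the siDhx30 libraries and -0.29 and -0.48 in the siTfam libraries. It was the glycolytic enzyme gene below NC in every library. Hk2, the hexokinase that HIF and growth signals induce, lay at 0.04 and 0.30 in siDhx30 and 0.03 and 0.09 in siTfam. The phosphoglucose isomerase gene Gpi1 lay at 0.01 and 0.16 in siDhx30 and 0.04 and 0.06 in siTfam. Both were above NC in all libraries by little. The phosphofructokinase subunit genes, which encode the committed step, were less even. Pfkl, the liver type, lay at -0.17 and 0.49 in siDhx30 and -0.10 and 0.12 in siTfam. Pfkp, the platelet type, lay at 0.20 and 0.20 in siDhx30 and 0.53 and -0.18 in siTfam. Neither gave a sign shared by all libraries. The aldolase genes, whose enzymes split fructose bisphosphate, were Aldoa at -0.05 and 0.26 in siDhx30 and 0.09 and 0.14 in siTfam, and Aldoc at -0.09 and 0.28 in siDhx30 and -0.17 and 0.37 in siTfam. Tpi1, which interconverts the triose phosphates, lay at -0.03 and 0.44 in siDhx30 and 0.0040 and 0.28 in siTfam. For these 3 genes replicate 2 lay above replicate 1 in both groups.

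In the ATP-yielding phase of the pathway 1 gene stood out by size. Pgk1, phosphoglycerate kinase, which makes the first ATP of this phase (GRCm38 chromosome X, 106187100 to 106203699, plus strand), had ratios of 0.73 and 0.66 in the siDhx30 libraries and 0.52 and 0.66 in the siTfam libraries. The 4 values lay within 0.21 of one another and the means were 1.62-fold (log2 0.69, SE 0.19, n = 2) and 1.50-fold (log2 0.59, SE 0.19, n = 2) of NC. Here and below, SE is that of the limma fit and not of the 2 values of a group. It rests on a spread pooled over both siRNA groups, which limma draws towards a common value over all genes. Against NC it assumes that spread for the single NC library. The n counts siRNA libraries alone. The limma adjusted p over all genes was 0.833 and 0.776, so Pgk1 did not pass. Its neighbours in the pathway did not share that size. Gapdh, the dehydrogenase one step before it, lay at 0.08 and 0.12 in siDhx30 and 0.17 and 0.18 in siTfam. Pgam1, the phosphoglycerate mutase one step after it, lay at -0.32 and 0.04 in siDhx30 and -0.43 and -0.16 in siTfam. The enolase genes were spread widely. Eno1, the form of most tissues, lay at -0.36 and 0.09 in siDhx30 and -0.27 and 0.09 in siTfam. Eno2, the neuronal form, lay at -0.58 and 0.20 in siDhx30 and -0.38 and -0.26 in siTfam. Eno3, the muscle form, lay at -0.13 and 0.08 in siDhx30 and 0.16 and 0.57 in siTfam. Every enolase had a higher ratio in replicate 2 than in replicate 1 of both groups. Pkm, pyruvate kinase, lay at 0.0091 and 0.10 in siDhx30 and -0.05 and 0.04 in siTfam. Ldha, which encodes the lactate dehydrogenase subunit that HIF induces, lay at 0.03 and 0.37 in siDhx30 and -0.0077 and 0.23 in siTfam. Pkm was the gene of this phase nearest to NC. The annotation holds other genes whose transcripts match a member at 95% identity or more over at least 300 bases for 10 of the 30 members: 43 for Gapdh, 5 for Bnip3, 4 for Pgk1, 3 each for Eno1 and Ldha, 2 for Bnip3l and 1 each for Gpi1, Tpi1, Pgam1 and Pkm. The sources used here do not say how such reads were counted, and the ratios of these 10 are uncertain to that extent.

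The regulators of phosphofructokinase differed from each other. Pfkfb3, the strongly kinase-biased enzyme that makes fructose 2,6-bisphosphate, the activator of phosphofructokinase (GRCm38 chromosome 2, 11471433 to 11554077, minus strand), had ratios of 0.64 and 0.92 in the siDhx30 libraries and 0.54 and 0.06 in the siTfam libraries. Both siDhx30 values lay above both siTfam values. The mean was 1.72-fold of NC in siDhx30 (log2 0.78, SE 0.30, n = 2), with a limma adjusted p of 0.998, and 0.30 (SE 0.30, n = 2) in siTfam. Pfkfb4, another HIF-responsive member of that family, lay at -0.05 and 0.22 in siDhx30 and 0.04 and -0.02 in siTfam. The plot of ratios by library shows both siDhx30 values of Pgk1 and Pfkfb3 to the right of those of the other glycolysis members. In siTfam, Pfkfb3 had the highest glycolysis value of replicate 1, at 0.54, and lay among the others in replicate 2, at 0.06.

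**Figure D1:**
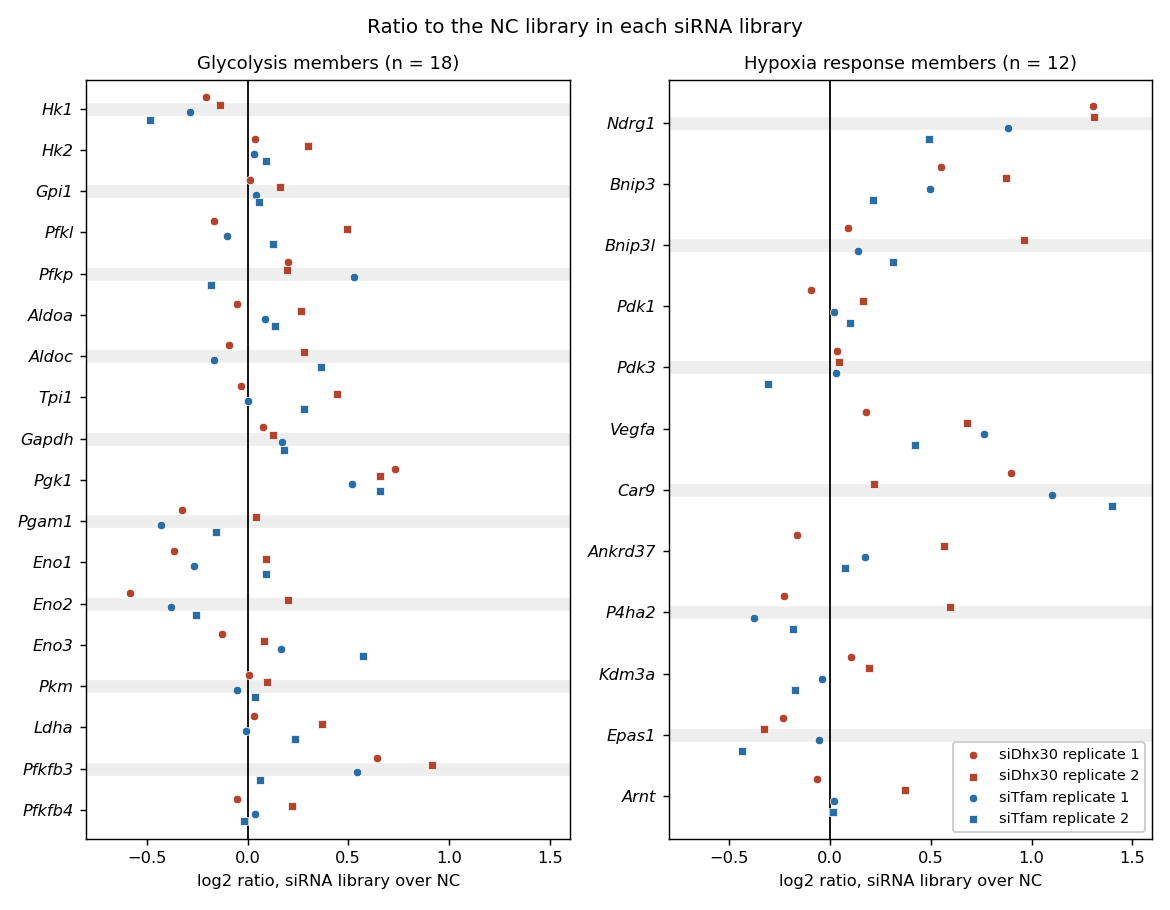
Log2 ratio of each siRNA library over the NC library (x axis) for the 18 glycolysis members in pathway order with their regulators last (left) and the 12 hypoxia response members (right). Each point is 1 library, red for siDhx30 and blue for siTfam, circles for replicate 1 and squares for replicate 2, and the vertical line at 0 is NC. Pgk1 and Ndrg1 lie to the right of the line in all 4 libraries, at 0.52 or more and 0.49 or more.

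In the hypoxia response Ndrg1 had the highest mean ratio in siDhx30 and Car9 the highest in siTfam. Ndrg1, a stress-responsive gene induced by HIF (GRCm38 chromosome 15, 66929318 to 66969640, minus strand), had ratios of 1.31 and 1.31 in the siDhx30 libraries and 0.89 and 0.49 in the siTfam libraries. All 4 were above NC, and both siDhx30 values lay above both siTfam values. The mean was 2.47-fold of NC in siDhx30 (log2 1.31, SE 0.24, n = 2), which 98.9% of tested genes lay below, and 1.61-fold in siTfam (log2 0.69, SE 0.24, n = 2). It did not pass, with limma adjusted p of 0.669 and 0.810. Car9, the membrane carbonic anhydrase that acidifies the outside of hypoxic cells (GRCm38 chromosome 4, 43506966 to 43513729, plus strand), had ratios of 0.90 and 0.22 in siDhx30 and 1.10 and 1.40 in siTfam. Here both siTfam values lay above both siDhx30 values. The mean was 1.47-fold of NC in siDhx30 (log2 0.56, SE 0.37, n = 2) and 2.38-fold in siTfam (log2 1.25, SE 0.37, n = 2), with limma adjusted p of 0.998 and 0.720.

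The mitophagy receptor genes were both above NC in every library. Bnip3 (GRCm38 chromosome 7, 138890836 to 138909519, minus strand) had ratios of 0.55 and 0.87 in siDhx30 and 0.50 and 0.22 in siTfam. Its mean was 1.64-fold of NC in siDhx30 (log2 0.71, SE 0.26, n = 2; limma adjusted p = 0.988) and 1.28-fold in siTfam (log2 0.36, SE 0.26, n = 2; limma adjusted p = 0.967). Bnip3l, its relative that clears mitochondria from maturing red cells, lay at 0.09 and 0.96 in siDhx30 and 0.14 and 0.31 in siTfam. The siDhx30 mean of Bnip3l, 0.53 (SE 0.43, n = 2), rested on replicate 2. Vegfa, the blood vessel growth factor (GRCm38 chromosome 17, 46016993 to 46032369, minus strand), was above NC throughout, at 0.18 and 0.68 in siDhx30 and 0.76 and 0.42 in siTfam. The groups overlapped.

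The remaining hypoxia response members lay nearer to 0 or changed sign between libraries. The pyruvate dehydrogenase kinase genes, whose enzymes hold pyruvate back from mitochondria, were Pdk1 at -0.09 and 0.16 in siDhx30 and 0.02 and 0.10 in siTfam, and Pdk3 at 0.04 and 0.05 in siDhx30 and 0.03 and -0.31 in siTfam. Ankrd37, a small HIF target, lay at -0.16 and 0.56 in siDhx30 and 0.18 and 0.07 in siTfam. P4ha2, a collagen prolyl hydroxylase subunit, lay at -0.23 and 0.60 in siDhx30 and -0.38 and -0.18 in siTfam. In Ankrd37 and P4ha2 the siDhx30 libraries had opposite signs. Kdm3a, a histone H3K9 demethylase that HIF induces, lay at 0.10 and 0.20 in siDhx30 and -0.04 and -0.17 in siTfam. Of the factors themselves, Epas1, the alpha subunit of HIF-2, lay at -0.23 and -0.33 in siDhx30 and -0.05 and -0.43 in siTfam, below NC in all 4. Arnt, the shared partner, lay at -0.07 and 0.37 in siDhx30 and 0.02 and 0.01 in siTfam. HIF activity is set mainly at the protein level, which these libraries do not measure.

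No member passed in any comparison. Against NC, 0 of 30 members had a limma adjusted p under 0.05 in siDhx30, beside 0% of 12088 genes. At an unadjusted p under 0.05 there were 3 members (Ndrg1, Bnip3 and Pgk1), beside 5.04% of genes. In siTfam against NC the count was again 0 of 30, beside 0% of genes, with 3 members at an unadjusted p under 0.05 (Ndrg1, Car9 and Pgk1), beside 6.11%. The smallest adjusted p of a member was 0.669 in siDhx30 and 0.720 in siTfam, and over all genes it was 0.298 and 0.285. The 95% intervals of the limma fit rest on 2 residual and 2.02 prior degrees of freedom and were wide. That of Pkm in siDhx30 ran from -0.46 to 0.57.

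Counted by sign, the members leaned above NC more in siDhx30 replicate 2 than in any other library. Both siDhx30 libraries were above 0 for 8 of 18 glycolysis members and 7 of 12 hypoxia response members, beside 32.1% of all genes tested. Both were below 0 for Hk1 and Epas1 alone, beside 34.9% of genes. In siTfam both libraries were above 0 for 8 of 18 and 8 of 12, beside 32%, and both were below 0 for 3 of 18 (Hk1, Pgam1 and Eno2) and 3 of 12 (P4ha2, Kdm3a and Epas1), beside 34.4%. Both siDhx30 libraries reached 0.5 for 2 of 18 (Pgk1 and Pfkfb3) and 2 of 12 (Ndrg1 and Bnip3), beside 4.77% of genes. Both siTfam libraries did so for Pgk1 and Car9, beside 5.34%. No member lay at or below -0.5 in both libraries of a group, beside 5.26% of genes in siDhx30 and 5.74% in siTfam. These shares leave out the 842 genes with a missing value. With the sign used here all their 1574 values lay above NC, so the filter took genes from that side alone.

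The medians of the lists depended on the library. For glycolysis the median was -0.04 in siDhx30 replicate 1, with 8 of 18 members above 0, and 0.21 in replicate 2, with 17 of 18 above 0. In siTfam it was 0.02 in replicate 1, with 10 of 18 above 0, and 0.09 in replicate 2, with 13 of 18. For the hypoxia response the siDhx30 medians were 0.06 with 7 of 12 above 0 in replicate 1 and 0.47 with 11 of 12 in replicate 2. The siTfam medians were 0.08 with 9 of 12 and 0.09 with 8 of 12. The median over all genes lay between -0.01 and -0.0057 in the 4 libraries, with 48.2% to 49.1% of genes above 0. Averaged over a group's libraries, the glycolysis median was 0.10 in siDhx30 and 0.08 in siTfam, and the hypoxia response median was 0.19 in siDhx30 and 0.09 in siTfam. Without the factors Epas1 and Arnt the 10 HIF targets had a median of 0.32 in siDhx30, all 10 above 0, beside 48.1% of all genes. In siTfam their median was 0.17, with 7 of 10 above 0, beside 47.3% of all genes. Epas1, left out here, was the 1 hypoxia response member with a siDhx30 mean below 0, at -0.28. In siDhx30 replicate 1 alone 7 of the 10 HIF targets were above 0, beside 48.2% of all genes.

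**Figure D2:**
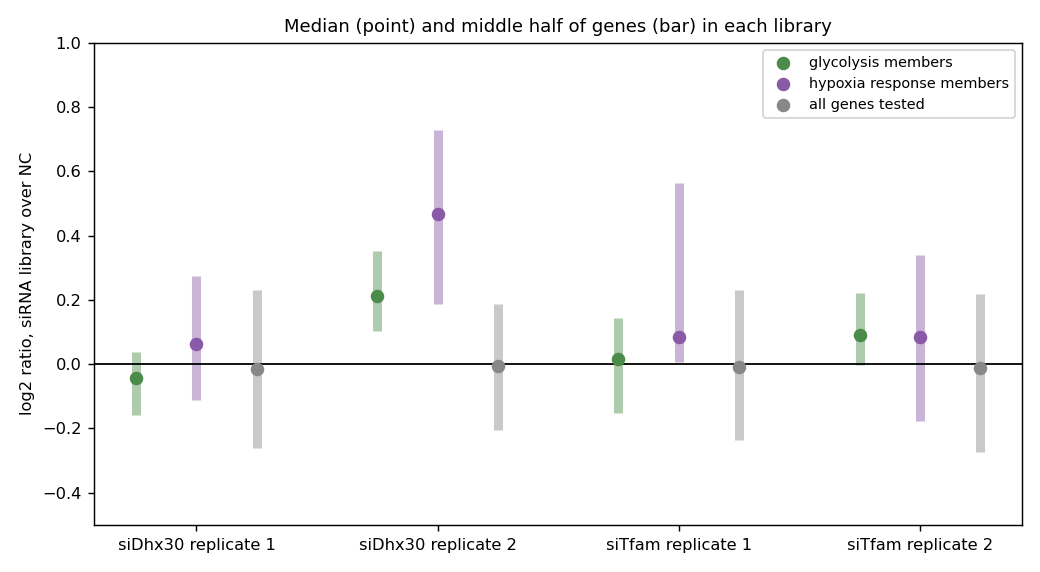
Log2 ratio over NC (y axis) in each siRNA library (x axis), with points for the median and bars for the interquartile range of the 18 glycolysis members, the 12 hypoxia response members and all 12088 genes tested. Both lists lie highest in siDhx30 replicate 2, with medians of 0.21 and 0.47, while all genes have medians near 0 in every library.

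Within siDhx30, replicate 2 lay above replicate 1 for 16 of 18 glycolysis members and 10 of 12 hypoxia response members, beside 51.3% of all genes. The median gap was 0.27 and 0.29 in those lists, against 0.0093 over all genes. Within siTfam, replicate 2 lay above replicate 1 for 14 of 18 glycolysis members, median gap 0.11, and for 4 of 12 hypoxia response members, median gap -0.12, beside 50.2% of all genes. In both lists the median gap between the siDhx30 replicates exceeded the list's median ratio over NC, 0.10 and 0.19. Across 9257 protein-coding genes the ratio had a Spearman correlation with transcript GC content of -0.33 in siDhx30 replicate 1 and -0.08 in siDhx30 replicate 2. It was -0.24 in siTfam replicate 1 and -0.07 in siTfam replicate 2. The correlation with transcript length also differed by library: 0.18 (replicate 1) against 0.03 (replicate 2) for siDhx30. For siTfam the length correlation was 0.06 (replicate 1) against -0.18 (replicate 2). The part of GC content or transcript length in these gaps was not tested.

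The direct comparison of siDhx30 with siTfam does not involve the NC library and has 2 libraries on each side. Ndrg1 was the member furthest above 0, with a difference of 0.62 (SE 0.20, 95% interval 0.06 to 1.17). Car9 was furthest below, at -0.69 (95% interval -1.53 to 0.15). Pfkfb3 differed by 0.48 (-0.20 to 1.16), P4ha2 by 0.46 (-0.47 to 1.40), Bnip3 by 0.36 (-0.23 to 0.94) and Eno3 by -0.39 (-0.996 to 0.21). Pgk1, high against NC in both groups, differed by 0.11 (-0.32 to 0.53). None passed: the limma count was 0 of 30 members, beside 0% of genes, at adjusted p of 0.999 for each member, and 1 member (Ndrg1) had an unadjusted p under 0.05, beside 2.79% of genes. Both siDhx30 libraries lay above both siTfam libraries for 2 of 18 glycolysis members (Hk1 and Pfkfb3) and 4 of 12 hypoxia response members (Ndrg1, Bnip3, Pdk3 and Kdm3a), beside 14.7% of genes. Both lay below for Gapdh, Eno3 and Car9, beside 14.3%. Kdm3a was the member above NC in both siDhx30 libraries and below it in both siTfam libraries, as were 2.42% of all genes, and no member showed the reverse, as did 2.47%. Most members overlapped between the siRNAs, as did most of all genes tested, and the intervals of all members but Ndrg1 included 0. The median difference was 0.07 for glycolysis and 0.16 for the hypoxia response, against -0.0015 for all genes. The 6 primitive endoderm markers had a median difference of 0.45, all 6 above 0, beside 49.8% of all genes. The part of these markers in the differences of the members was not tested.

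**Figure D3:**
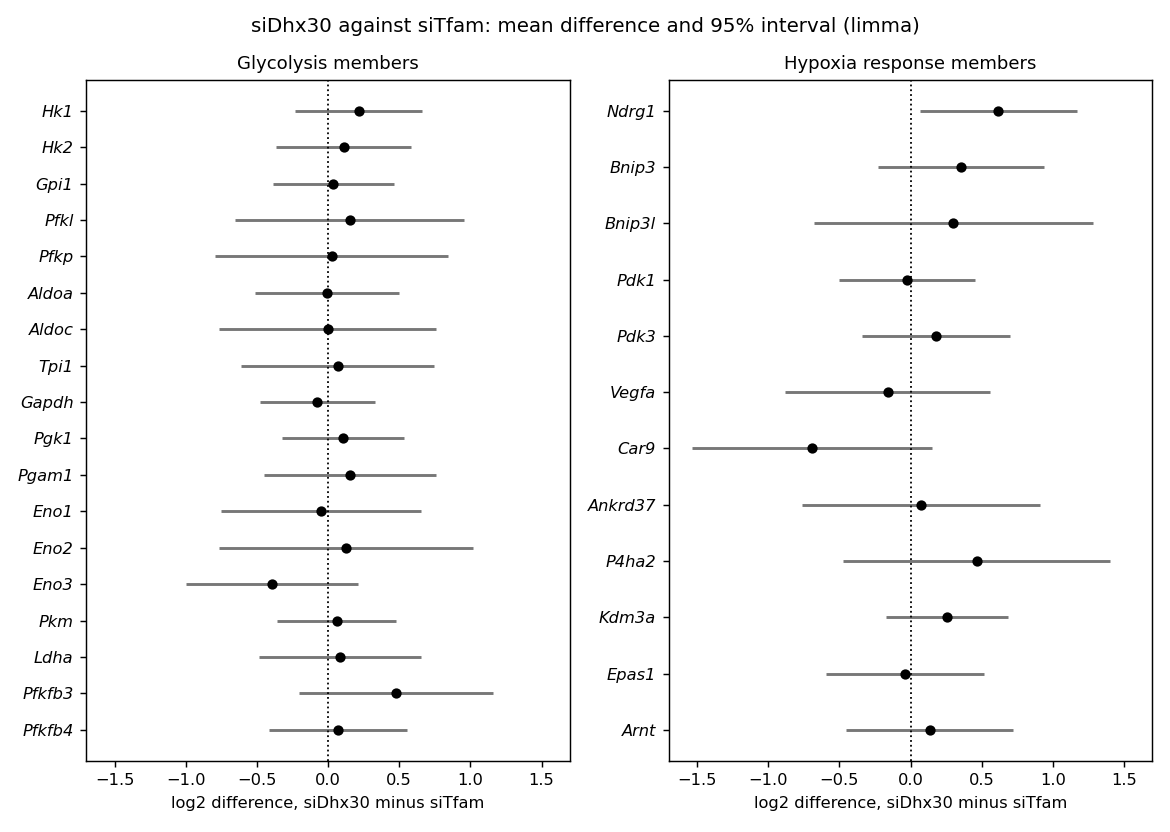
Mean log2 difference, siDhx30 minus siTfam (x axis), for each glycolysis member (left) and hypoxia response member (right). Points are means of 2 libraries per group and lines are 95% intervals from limma. The interval of Ndrg1, from 0.06 to 1.17, is the one that leaves out 0.

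The difference between the siRNAs depended on which libraries were set against each other. Between the libraries numbered 1, siDhx30 lay above siTfam for 8 of 18 glycolysis members (median difference -0.03) and 5 of 12 hypoxia response members (median -0.07). Between those numbered 2 it lay above for 14 of 18 (median 0.15) and 11 of 12 (median 0.36). Over all genes tested, siDhx30 lay above siTfam for 49.1% (median -0.0047) between the libraries numbered 1 and 50.5% (median 0.0041) between those numbered 2. Ndrg1 had the same sign in both, at 0.42 and 0.81, as did Car9 at -0.20 and -1.18. Eno3 also did, at -0.29 and -0.49. Vegfa changed sign, with -0.58 for the libraries numbered 1 and 0.26 for those numbered 2, and Bnip3l lay at -0.05 and 0.65. Pfkfb3 lay at 0.10 and 0.85, so that most of its mean difference came from the libraries numbered 2.

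**Figure D4:**
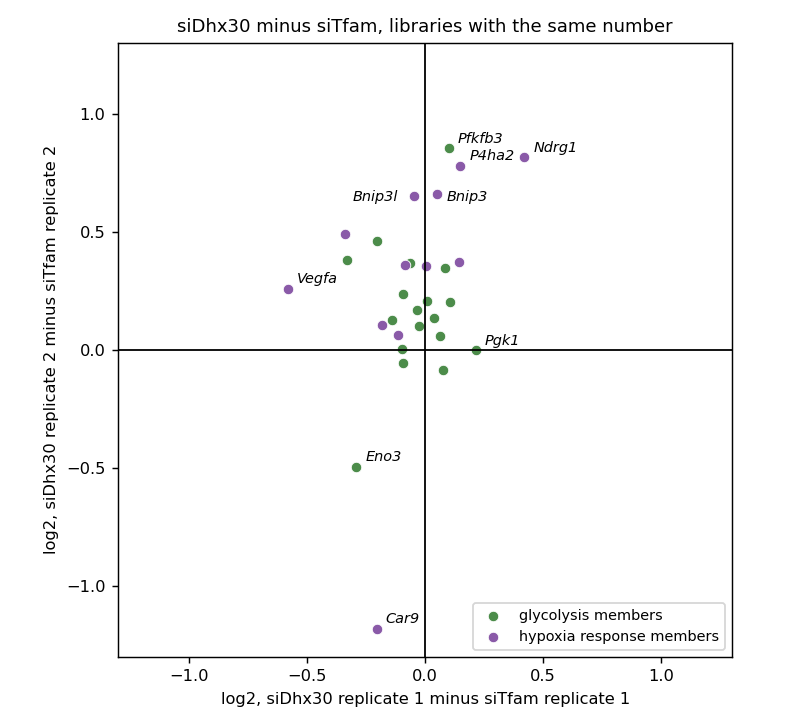
Log2 difference siDhx30 minus siTfam between the libraries numbered 1 (x axis) and between those numbered 2 (y axis), 1 point per member, with some members named. Most points lie above the horizontal line and spread about the vertical line: 25 of 30 members are above 0 in the libraries numbered 2 and 13 of 30 in those numbered 1. The shares of all genes tested are 50.5% and 49.1% in the same order.

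Genes that feed and drain glycolysis showed no common lean. Of 36 genes for glucose supply and pyruvate fate 20 had values, with a median of 0.00070 in siDhx30 and 0.03 in siTfam. Means were above 0 for 10 of 20 in siDhx30 and 12 of 20 in siTfam, beside 48.1% and 47.3% of all genes. No gene of this or the next lists passed in any comparison. Slc2a3, the high-affinity glucose transporter of early embryos and neurons, had ratios of 0.39 and 0.79 in siDhx30 and 0.57 and 0.38 in siTfam, above NC in all 4. Gys1, the muscle type of glycogen synthase, lay at 0.33 and 0.41 in siDhx30 and 0.82 and 0.56 in siTfam, also above NC in all 4 and with both siTfam values above both siDhx30 values. Hk3, a further hexokinase, lay at 0.16 and 0.56 in siDhx30 and 0.25 and -0.29 in siTfam. Pfkfb2, the heart type of the regulator family, had a siDhx30 mean of -0.55 that rested on replicate 1, with values of -1.03 and -0.06, and lay at -0.14 and 0.23 in siTfam. Pygl, liver glycogen phosphorylase, lay at 0.40 and -0.26 in siDhx30 and -0.20 and -0.66 in siTfam. Ldhd, a mitochondrial D-lactate dehydrogenase, lay at -0.27 and -0.36 in siDhx30 and 0.11 and 0.64 in siTfam.

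Other HIF-responsive genes went both ways. Of 33 such genes 23 had values in all libraries, with a median of 0.08 in siDhx30 and 0.07 in siTfam. Means were above 0 for 13 of 23 in siDhx30 and 14 of 23 in siTfam, beside 48.1% and 47.3% of all genes. In siDhx30 both libraries were above 0 for 11 of 23 (beside 32.1% of all genes) and below 0 for 9 of 23 (beside 34.9%). In siTfam both were above 0 for 11 of 23 (beside 32%) and below 0 for 6 of 23 (beside 34.4%). Ak4, a mitochondrial adenylate kinase, had ratios of 0.40 and 0.97 in siDhx30 and 0.45 and 0.39 in siTfam. Plod2, a collagen lysyl hydroxylase, lay at 0.46 and 0.61 in siDhx30 and 0.23 and 0.45 in siTfam. Both were above NC in every library. Car12, another membrane carbonic anhydrase, lay on the other side, at -0.59 and -1.26 in siDhx30 and -0.58 and -1.36 in siTfam. Flt1, a receptor for the Vegfa protein, lay at -0.18 and -0.86 in siDhx30 and -0.15 and -1.74 in siTfam. Car12 was thus opposite in sign to Car9 in all 4 libraries.

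The genes that sense oxygen, dispose of the alpha subunits or otherwise act with HIF, such as Ep300 and Arnt2, had medians close to 0. Of 12 such genes 10 had values, with a median of -0.0100 in siDhx30 and 0.0043 in siTfam. Means were above 0 for 5 of 10 in each, beside 48.1% of all genes in siDhx30 and 47.3% in siTfam. Vhl, the recognition subunit of the ligase that destroys the alpha subunits, had ratios of -0.19 and -0.44 in siDhx30 and -0.32 and -0.61 in siTfam. Hif1an, the asparaginyl hydroxylase that blocks HIF from its coactivators, lay at -0.06 and -0.28 in siDhx30 and -0.64 and -0.08 in siTfam. Egln2, a prolyl hydroxylase, lay at -0.40 and -0.10 in siDhx30 and -0.27 and -0.22 in siTfam. These 3 negative regulators lay below NC in every library, without passing, and were the 3 of 10 genes of the list below 0 in both libraries of siDhx30, beside 34.9% of all genes, and of siTfam, beside 34.4%. With length and GC trends removed the means of Egln2 were -0.013 in siDhx30 and -0.028 in siTfam, against -0.25 and -0.24 without that step. Cul2, the scaffold of the Vhl ligase, named after its values were seen, lay at 0.19 and 0.14 in siDhx30 and 0.26 and 0.25 in siTfam. The elongins of that ligase lay mostly above NC: Eloc at 0.60 and 0.24 in siDhx30 and 0.51 and 0.41 in siTfam, and Elob at 0.11 and -0.06 in siDhx30 and 0.24 and 0.39 in siTfam. Ep300, a HIF coactivator, lay at 0.37 and 0.28 in siDhx30 and 0.17 and -0.41 in siTfam.

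**Figure D5:**
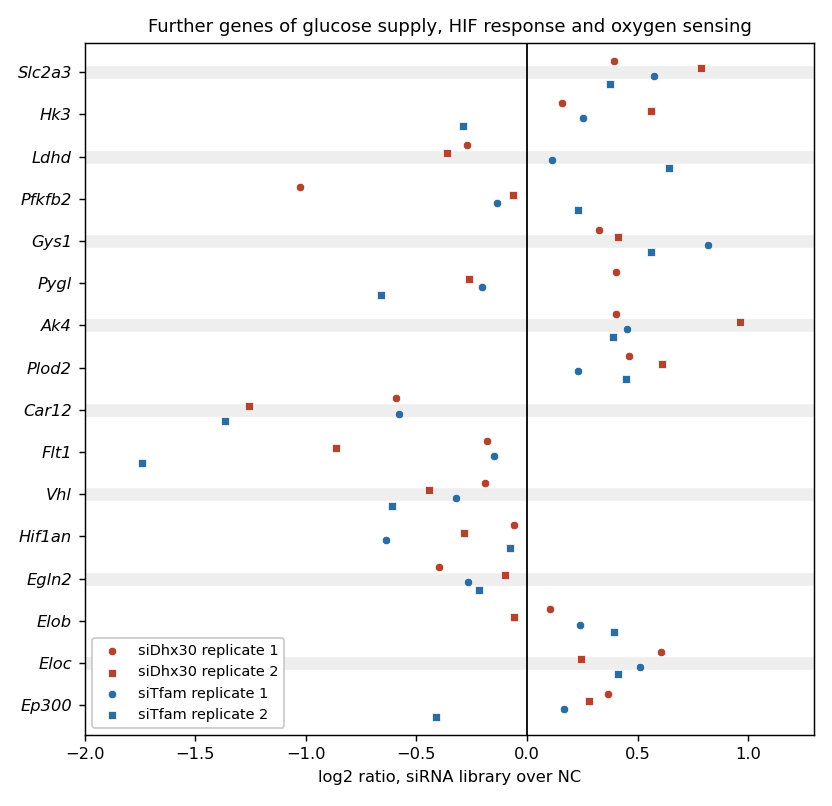
Log2 ratio of each siRNA library over the NC library (x axis) for the named genes of glucose supply and pyruvate fate (top), other HIF-responsive genes (middle) and oxygen sensing (bottom). Red points are siDhx30 and blue points siTfam, circles replicate 1 and squares replicate 2. Slc2a3, Gys1, Ak4, Plod2 and Eloc lie above NC in all 4 libraries, and Car12, Flt1, Vhl, Hif1an and Egln2 below it.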

How the data were processed

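RNA-seq libraries of 2 siDhx30, 2 siTfam and 1 NC sample were compared. Per the submitters' processing notes the tools were bcl2fastq, HISAT2, featureCounts and DESeq2 on GRCm38; the sources used here give no settings, strand use or filters. Libraries were made from total RNA with SMART cDNA synthesis, per the labels. The authors deposited 1 log2 fold value per gene and siRNA library, per the file headers, which write DHAX30 where the labels have siDHX30; all siDhx30 values rest on reading these as the same. No counts were used, so depth and counting error are unknown. Names were matched to GENCODE M21 (12660 of 12930). The sign was reversed to give siRNA over NC. The members, lists and tests were chosen with earlier results of these data known. The 12088 genes with 4 values were fitted with limma 3.58.1 in R 4.3.3 (robust=TRUE, no trend, prior degrees of freedom 2.02), with NC entered as zeros and assumed to have the same spread as the others, and Benjamini-Hochberg adjustment at 0.05. The step was tested on simulated data. All members are described; from each further list up to 4 genes per group are named, those past the threshold or, as none passed, those with the largest mean and both libraries on one side. One gene that this rule names is not reported here. Alternatives left out each library, kept genes with missing values, centred libraries, removed length and GC trends, used robust=FALSE or blocked on the replicate number. Similar transcripts were found with blastn 2.17.0. Tables and plots used Python 3.11.15, pandas 2.3.3 and matplotlib 3.10.9.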

Additional observations from a re-analysis of the deposited data

Results flagged for a closer look

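Among the named genes 2 had both siDhx30 libraries on one side of NC and both siTfam libraries on the other. Kdm3a was above NC in both siDhx30 libraries and below it in both siTfam libraries, a pattern that 2.42% of all genes shared, and its mean difference was 0.26 (95% interval -0.17 to 0.69, limma adjusted p = 0.999). Ldhd showed the opposite, as did 2.47% of all genes, with a mean difference of -0.69 (95% interval -1.36 to -0.03, limma adjusted p = 0.999).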

How the results depend on the processing

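No gene passed an adjusted p of 0.05 in any of the 3 comparisons, and the limma count stayed at 0 under every alternative run, the replicate block included. At an unadjusted p under 0.05 the design as reported gave 609 genes in siDhx30 against NC, 739 in siTfam against NC and 337 in siDhx30 against siTfam. In the last comparison this count was 566 under the replicate block. With 2 pairs of numbered libraries the deviations of the libraries numbered 1 had a correlation of 0.25 over genes; the labels give the number no meaning, and the block left the median differences at 0.07 and 0.16. Leaving out a library gave glycolysis medians of -0.04 to 0.21 in siDhx30 against NC, 0.017 to 0.091 in siTfam against NC and -0.074 to 0.20 in siDhx30 against siTfam, the negative ends without siDhx30 replicate 2. The hypoxia response medians ran from 0.06 to 0.47, 0.084 to 0.092 and -0.037 to 0.33 in the same order. With length and GC trends removed the glycolysis median was 0.17 in siDhx30, with 15 of 18 members above 0, beside 4718 of 9257 genes. It was 0.15 in siTfam, and the hypoxia response median was 0.22 in siDhx30 and 0.068 in siTfam. With libraries centred the siTfam hypoxia response median was 0.10. Of 46 named genes, which leave out Cul2, trend removal changed the sign of 2 in siDhx30 and 3 in siTfam against NC. In siDhx30 against siTfam it changed 4. Leaving out replicate 1 or replicate 2 of the group changed 6 or 9 in siDhx30 and 4 or 7 in siTfam against NC. In siDhx30 against siTfam, leaving out a library changed 6 to 15, the most without siDhx30 replicate 2. Without counts, neither depth nor low reads could be weighed.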
